A study of Mus musculus with 7 samples.

Results

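Cytochrome P450 genes are described here across the 16 cell clusters of the mouse kidney. All genes of the deposited matrix whose symbol starts with Cyp and a digit were taken, apart from Cyp24a1 and Cyp27b1, which gave 50 of 16272 genes. By role they comprised 15 fatty acid hydroxylase genes of family 4, 9 genes of the epoxygenase-type subfamilies 2j and 2c, 16 other genes of families 1, 2 and 3, 9 genes of sterol, steroid, vitamin D and retinoid metabolism, and the orphan Cyp20a1. The rule reads gene symbols and no measured value.

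Whole kidneys of 7 healthy C57BL/6 mice aged 4 to 8 weeks were dissociated and profiled by droplet-based sequencing of transcript 3′ ends, which counts molecules by unique molecular identifiers (UMIs). By genotype, 3 mice carried a Cre reporter, among them 1 Cdh16CremTmG and 1 SclCremTmG, and 4 were WT. In the reporter mice a fluorescent membrane protein is switched by a Cre recombinase under a cell type promoter, such as that of a tubule gene (Cdh16) or a blood and vessel gene (Scl). The labels give no treatment and no sex. No source used here ties the 7 barcode libraries of the matrix to the labelled mice, so they are called libraries 1 to 7 and stand for 7 kidneys of 1 group, and no genotypes were compared.

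The matrix held 43745 cells, against 57979 stated, with 1383 to 14136 cells and 4217169 to 49997616 UMIs per library. A barcode occurred in more than 1 library in 974 cases, covering 1962 cells, and 359 of these barcodes lay in the same cluster each time. The authors' cluster numbers were checked against marker genes. The highest mean level lay in cluster 1 for 6 of 6 endothelial markers, in cluster 2 for 4 of 4 podocyte markers, in cluster 3 for 8 of 8 proximal tubule markers, in cluster 4 for 4 of 4 loop of Henle markers and in cluster 5 for 3 of 3 distal convoluted tubule markers. It lay in cluster 6 for 4 of 4 principal cell markers and in cluster 7 for 3 of 5 intercalated cell markers, with Slc26a4 and Foxi1 higher in cluster 8, which carries both collecting duct marker sets. Cluster 9 held proliferation and proximal markers together, and clusters 10 to 15 held the markers of monocytes, macrophages, neutrophils, B lymphocytes, T lymphocytes and natural killer cells. In cluster 3, library 7 had 3338 CPM of Xist (CPM, the UMI count scaled to a fixed total per library and cluster) and no UMI of the Y-linked genes Ddx3y, Uty, Kdm5d and Eif2s3y, while libraries 1 to 6 had at most 0.50 CPM of Xist and 44.6 to 87.9 CPM of Ddx3y.

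P450 enzymes are haem proteins that insert an oxygen atom into fatty acids, steroids, retinoids and foreign compounds. Most sit in the endoplasmic reticulum and receive electrons from the reductase encoded by Por, and a few lie in mitochondria and use ferredoxin. In the kidney they are best known from the proximal tubule, where family 4 enzymes hydroxylate fatty acids such as arachidonic acid and subfamily 2j and 2c enzymes turn arachidonic acid into epoxides.

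Many of the genes lie side by side in the genome. In GENCODE vM21 (GRCm38), 49 of the 50 symbols were found, on 13 chromosomes, among 98 annotated protein-coding Cyp genes. The longest runs were 8 genes from Cyp4x1 to Cyp4b1 at chr4:115106323-115647723, 7 from Cyp2j13 to Cyp2j5 at chr4:96027534-96664154, 6 from Cyp2d22 to Cyp2d26 at chr15:82370527-82794294 and 5 from Cyp4f17 to Cyp4f13 at chr17:32506050-32947402. Cyp2a4 and Cyp2a5 lie on chromosome 7 in separate runs, and Cyp2d9 and Cyp2d26 both lie in the chromosome 15 run. The 2 pairs are shown because the genes of each differed in level within cluster 3. Each sequence is the 150 bases before the transcription start, 5′ to 3′, from RefSeq (GRCm38.p6), with TATAAA, on either strand, in capitals.
Cyp2a4 (chr7:26307042-26307191, plus strand): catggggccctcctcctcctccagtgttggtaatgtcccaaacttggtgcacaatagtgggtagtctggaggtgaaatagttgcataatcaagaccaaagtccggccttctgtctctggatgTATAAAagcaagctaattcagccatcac
Cyp2a5 (chr7:26835189-26835338, plus strand): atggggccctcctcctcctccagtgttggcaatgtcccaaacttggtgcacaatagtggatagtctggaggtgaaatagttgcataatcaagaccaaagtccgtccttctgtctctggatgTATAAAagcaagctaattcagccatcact
Cyp2d9 (chr15:82452227-82452376, plus strand): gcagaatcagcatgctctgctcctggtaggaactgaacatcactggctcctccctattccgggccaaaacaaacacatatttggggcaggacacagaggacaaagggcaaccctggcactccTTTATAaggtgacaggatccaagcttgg
Cyp2d26 (chr15:82794246-82794395, minus strand): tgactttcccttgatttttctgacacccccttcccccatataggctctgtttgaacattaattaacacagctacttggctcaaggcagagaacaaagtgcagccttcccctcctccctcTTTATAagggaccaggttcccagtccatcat

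The upstream sequences of Cyp2a4 and Cyp2a5 were 96.7% identical and those of Cyp2d9 and Cyp2d26 55.9%. RefSeq places each start shown inside the GENCODE gene. A part of the window thus lies within that gene for Cyp2a4, Cyp2a5 and Cyp2d26, and the whole window for Cyp2d9. The GENCODE genes begin at 26307169 (Cyp2a4), 26835305 (Cyp2a5), 82433437 (Cyp2d9) and, on the minus strand, 82794294 (Cyp2d26). Of the 50 genes, 35 had a RefSeq promoter in the table, and 11 of these held TATAAA within 250 bases before the start, on either strand, against 12.97% of all 27025 promoters. TTCNNNGAA, searched likewise, was in 3 (Cyp2j11, Cyp4b1 and Cyp4f13), against 7.18% of all promoters. The consensus letters of HNF1 and of the direct repeat DR1 were in none of the 35 windows and in 0.0074% and 0.037% of all promoters.

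Proximal tubule-like cells held most of the P450 RNA. Cluster 3 made up 60.5% of cells and 58.3% of all UMIs and gave 158760 of the 189958 P450 UMIs, or 83.6%. The 50 genes together reached 2778 ± 1307 CPM there (mean ± SD, n = 7 libraries), where the CPM scale is set by all UMIs of a library's cells in a cluster. The next highest summed levels were 1231 ± 338 CPM in endothelial-like cluster 1 (n = 7), 995 ± 360.4 CPM in neutrophil-like cluster 12 (n = 5, where 8 proximal markers stood at 28.6% of cluster 3) and 979 ± 311 CPM in cycling cluster 9 (n = 4). Loop, distal, principal-like and intercalated-like cells had 459 ± 178, 574 ± 193, 433 ± 145 and 506 ± 144 CPM, with n = 7, 7, 6 and 7. A 3′ count does not grow with transcript length, so CPM of different genes can be set side by side, apart from differences in capture.

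A low level outside cluster 3 was shared with genes that only proximal cells are known for. In T lymphocyte-like cluster 14, the 8 proximal markers stood at 15.2% ± 10.2 of their summed CPM in cluster 3 of the same library (n = 7), and Cyp4b1 at 12.2%, Cyp2j5 at 13.99% and Cyp2e1 at 13.7%. In droplet data free RNA can give such UMIs, and levels of this size are not read as expression here. Their source was not tested. The marker level differed between clusters, at 19.1% in cluster 1, 13.6% in cluster 5, 6.25% in cluster 7 and 46.2% in cluster 9, and is given beside results that it touches.

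**Figure D1:**
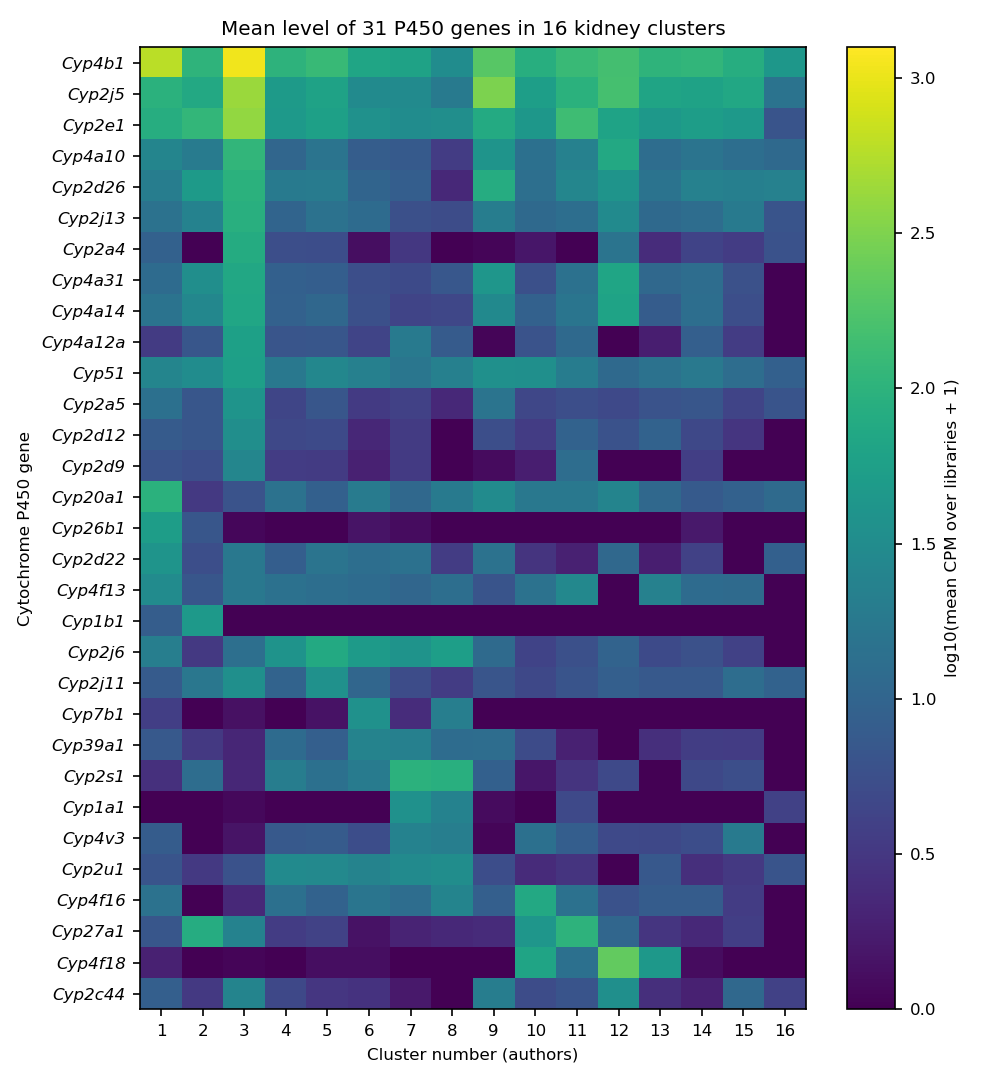
Mean level of the 31 P450 genes that reached at least 20 CPM in a cluster with 4 or more libraries (rows), in each of the 16 clusters (columns), as log10 of the mean CPM over libraries plus 1. Cyp4b1, Cyp2j5 and Cyp2e1 are brightest in cluster 3, while Cyp2s1 and Cyp1a1 stand out in clusters 7 and 8, Cyp26b1 in cluster 1 and Cyp4f18 in cluster 12.

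By their highest cluster mean, 5 genes reached 100 CPM (Cyp4b1, Cyp2j5, Cyp2e1, Cyp4f18 and Cyp4a10), 26 lay between 20 and 100, 8 between 5 and 20 and 11 under 5. Of the 31 genes of at least 20 CPM, 14 were highest in cluster 3 and 17 elsewhere, as drawn in the heat map of mean levels. This split goes by means, and some genes were undecided by library. Cyp2c44 was highest in cluster 12 (34.2 ± 43.8 CPM) but above cluster 3 there in 2 of 5 libraries, with 88.4% of its UMIs in cluster 3. Cyp27a1 and Cyp2s1, counted elsewhere, and Cyp2d26, counted to cluster 3, were above their next highest cluster in 2 of 4 libraries. Cyp4b1, a fatty acid hydroxylase that also activates some toxins, was first with 1074 ± 902 CPM in cluster 3. Its levels there were 686, 593, 2527, 2035, 309, 1224 and 148 CPM in libraries 1 to 7. Cyp2j5, an arachidonic acid epoxygenase, followed with 432 ± 103 CPM, and Cyp2e1, which oxidises ethanol and other small molecules, with 390 ± 238 CPM. These 3 genes gave 29.6% (library 7) to 77.6% of the P450 CPM of cluster 3, with a median of 68.6%.

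The first comparison asked which P450 genes are higher in proximal tubule-like cells (cluster 3) than in the mean of loop, distal, principal-like and intercalated-like cells (clusters 4 to 7). Cyp4b1, 4 Cyp4a genes, Cyp2j5, Cyp2j13, Cyp27a1, Cyp2e1, Cyp2d26 and Cyp51 were higher, and Cyp2s1, Cyp4f16, Cyp2j6 and Cyp20a1 lower. Of the 50 genes, 17 passed the filter on low counts, and 11 of these were higher and 4 lower (edgeR quasi-likelihood test, adjusted p under 0.05). Of all 7952 genes tested, 29.1% were higher and 31.4% lower, or 24.0% and 39.3% when scaled by library totals without TMM, an alternative chosen after the data were seen that left the P450 counts at 11 and 4. The median log2 fold was 3.097 over the 17 genes and -0.04 over all tested. Any gene can pass the filter through the cluster where it is high, here and in the later cluster comparisons. The counts and medians of P450 genes are thus not independent of the filter. The deposited clusters were themselves made from this expression matrix, so p-values between clusters are not independent evidence. They rest on the spread left between cluster sums of these 7 libraries once general differences between libraries are fitted, estimated over all clusters together.

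Among family 4 genes, Cyp4b1 had a log2 fold of 3.88 ± 0.19 (SE, edgeR adjusted p = 5.42e-37, 6 of 6 libraries). Cyp4a31 (3.67), Cyp4a10 (3.67), Cyp4a14 (3.36) and Cyp4a12a (2.73), which hydroxylate fatty acids at the end of the chain, were higher too. Cyp4f16, of a less studied family 4 branch, was lower by -2.64 ± 0.23, with 1.29 ± 0.86 CPM in cluster 3 (n = 7) and 8.48 to 15.1 CPM as means of clusters 4 to 7. In subfamily 2j, Cyp2j5 (3.78 ± 0.15) and Cyp2j13 (3.35) were higher and their neighbour Cyp2j6 lower (-1.89 ± 0.16). The mitochondrial sterol hydroxylase gene Cyp27a1 (3.68), Cyp2e1 (3.48), Cyp2d26 (3.097) and Cyp51, the lanosterol demethylase of cholesterol synthesis (1.56), completed the 11. Cyp2s1 had the largest negative fold (-4.06 ± 0.21, edgeR adjusted p = 6.36e-33), and Cyp20a1 was lower by -1.21 ± 0.20. Cyp2a4, Cyp2a5, Cyp2d9, Cyp2d12 and Cyp2c44 did not pass the filter on low counts, although their means in cluster 3 were 24.2 to 79.0 CPM.

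Levels in cluster 3 differed between kidneys far more than counting error. Libraries 3 and 4 were high in Cyp4b1, Cyp2e1, Cyp2j13, Cyp4a12a, Cyp2a4 and Cyp2d9 and low in Cyp4a14, Cyp4a31, Cyp2d26 and Cyp2c44. Library 7 was lowest for 5 of the 11 genes with a mean of at least 50 CPM. All intervals here are exact Poisson 95% intervals of counting error only, and the 7 libraries have no group labels that could be tested against each other.

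Cyp2j13 had no UMI at all in library 7, in cluster 3 or in any other cluster sum, against 4850 UMIs in the other libraries. Its levels in cluster 3 of libraries 1 to 6 were 62.7, 61.4, 187, 169, 19.9 and 125 CPM. With 3 counts as the limit that a count of 0 allows, 0.282 CPM in library 7, library 3 was at least 663-fold higher, and the upper end of the exact Poisson interval in library 7 was 0.347 CPM. Other genes of its array were present in that library, with Cyp2j5 at 267 CPM and Cyp2j11 at 38.5 CPM. The other genes with a wide range were still detected everywhere.

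Cyp4a12a, a hydroxylase of arachidonic acid whose kidney level is known to depend on androgen in mice, had 7.31, 5.34, 167, 158, 0.79, 55.0 and 0.47 CPM in libraries 1 to 7, a 356-fold range with 5 UMIs in library 7. Cyp4a14, a relative known to be induced through the fatty acid receptor PPAR alpha, had 49.1, 46.3, 1.56, 0.91, 143, 19.3 and 216 CPM. The libraries with the most Cyp4a12a thus had the least Cyp4a14, and the reverse. Cyp4a31 was at 97.9, 108, 8.30, 7.87, 127, 2.10 and 143 CPM, low in libraries 3, 4 and 6 alike. Their relative Cyp4a10 varied least of the 4, from 81.1 to 182 CPM with a median of 103 CPM.

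Cyp2a4, a steroid hydroxylase gene, had 14.98, 24.0, 256, 244 and 0.24 CPM in libraries 1 to 5, and 11.2 and 3.01 CPM in libraries 6 and 7. Cyp2a5, which oxidises coumarin and nicotine and shares most of the upstream sequence printed above, had 31.3, 33.7, 46.7, 37.2, 27.0, 92.5 and 6.11 CPM. The steep difference of libraries 3 and 4 was thus seen for Cyp2a4 and not for Cyp2a5. Of all 50-base windows in the last 500 bases of transcripts, Cyp2a4 shared 44.3% with other genes and 37.0% with Cyp2a5, and Cyp4a12a shared 37.0% with Cyp4a12b, so reads of these genes can be lost or moved between copies in the authors' counting.

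Within the Cyp2d array the levels also ran in different ways. Cyp2d9, a testosterone hydroxylase gene known to be male-biased in mouse liver, had 65.9 and 66.6 CPM in libraries 3 and 4, 0.66 CPM in library 7 and 2.25 to 19.9 CPM elsewhere. Cyp2d26 had 97.5, 70.6, 20.2, 11.8, 183, 105 and 172 CPM in libraries 1 to 7, lowest in libraries 3 and 4. Cyp2d12 had 28.2, 26.2, 5.19, 3.33, 24.7, 51.6 and 91.2 CPM, highest in library 7. The shared windows of Cyp2d9, Cyp2d12 and Cyp2d26 were 23.9%, 19.5% and 25.7%.

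Cyp2e1 had 28.4 CPM in library 7 and 132 CPM in library 5, against 391 to 703 CPM in the other libraries. Cyp4b1 spanned 148 to 2527 CPM, a 17.1-fold range. Cyp2j5 (2.20-fold), Cyp4a10 (2.24-fold) and Cyp51 (4.02-fold) had the narrowest ranges of the 11. The 8 proximal markers together ranged only from 6775 to 9318 CPM in cluster 3. Library 7, the one with Xist, was lowest for Cyp2j13, Cyp4a12a, Cyp2d9 and Cyp2e1. Library 5, with Y-linked genes and 0.24 CPM of Xist, had 0.79 CPM of Cyp4a12a (interval 0.481 to 1.22), against 0.47 CPM in library 7 (0.153 to 1.10), and was lower than library 7 for Cyp2a4 (0.236 CPM, against 3.01 CPM in library 7) and higher for Cyp2d9 (2.25 CPM, against 0.658 CPM). The part of sex or age in these differences was not tested.

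**Figure D2:**
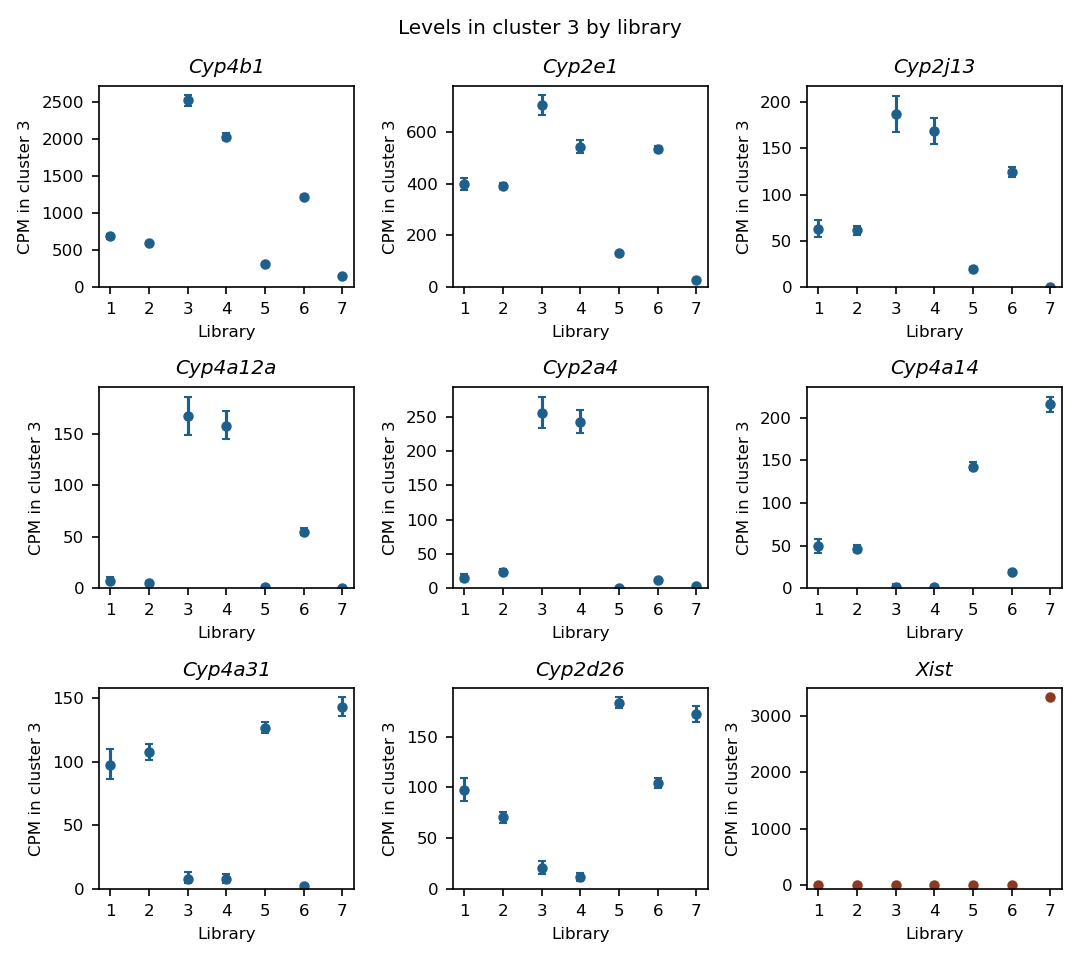
CPM in cluster 3 of each of the 7 libraries (points) with exact Poisson 95% intervals (bars) for 8 P450 genes, and Xist in red. Libraries 3 and 4 are highest for Cyp4b1, Cyp2e1, Cyp2j13, Cyp4a12a and Cyp2a4 and at or under 8.30 CPM for Cyp4a14 and Cyp4a31, and Cyp2j13 is at 0 in library 7, which alone carries Xist.

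The proximal tubule changes along its length, and the next comparison asked how P450 RNA differs between late and early proximal cells of cluster 3. Cells were split by transporter and other marker genes of each portion, none of them a P450 gene, into 2636 late and 13808 early cells, with 4732 mixed cells and 5306 with too few marker UMIs left out. Late cells were 25.6% and 26.8% of cluster 3 in libraries 3 and 4 and 0.90% (36 cells) in library 7. Late and early cells had medians of 2499.5 and 2436 UMIs and of 19.9% and 16.2% mitochondrial UMIs. Of 21 P450 genes tested in libraries as pairs, 13 were higher and 2 lower in late cells (edgeR, adjusted p under 0.05), against 12.2% and 10.8% of all 7505 genes tested. The median log2 fold was 1.14 over the 21 genes and -0.02 over all. Here too a gene can pass the filter through the class where it is high. The counts and the median of P450 genes are thus not independent of the filter.

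Cyp2d9 and Cyp2a4 had the largest folds. Cyp2d9 had 73.2, 37.2, 86.6, 104, 16.9, 54.3 and 0 CPM in late cells of libraries 1 to 7, against 2.60, 4.18, 3.25, 26.1, 1.04, 4.65 and 0.65 CPM in early cells. The groups differed in the same direction in 6 libraries, with a log2 fold of 3.40 ± 0.21 (SE, edgeR adjusted p = 5.21e-15). Cyp2a4 ran from 1.12 to 370 CPM in late cells with a median of 73.2, against 0.12 to 64.2 CPM with a median of 3.56 in early cells, and was higher in late cells in 7 of 7 libraries (3.40 ± 0.21). Its near-copy Cyp2a5 had a fold of 1.61 ± 0.18, in 6 of 7 libraries.

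Cyp51 was next, with 111, 94.8, 133, 134, 57.3, 151 and 330.2 CPM in late cells, against 16.2, 13.7, 19.5, 42.8, 18.8, 28.8 and 36.9 CPM in early cells (2.35 ± 0.15, edgeR adjusted p = 1.14e-14). No library's late value lay under any early value. Of the Cyp4a genes, Cyp4a10 had the largest fold (1.86 ± 0.15), with a median of 238 CPM in late cells, against 45.1 CPM in early cells, and 7 of 7 libraries. Cyp4a14 (1.68), Cyp4a31 (1.23) and Cyp4a12a (1.00) followed, in 5, 7 and 6 of 7 libraries.

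Cyp2e1 (1.49 ± 0.12) had a median of 681 CPM in late cells, against 190 CPM in early cells, and was higher in late cells of each library, although library 7 had only 34.2 CPM in late cells and 27.5 CPM in early cells. Cyp4b1 (1.37 ± 0.14) had 1373, 1099, 2792, 2482, 755, 1806 and 125 CPM in late cells, against 353, 291, 1389, 1276, 189, 713 and 154 CPM in early cells. Libraries 1 to 6 were thus higher in late cells and library 7 lower. Cyp2j11 (1.64), Cyp2j13 (1.14) and Cyp2j5 (0.60) also passed, while Cyp2j6 (0.15) and Cyp2j9 (-0.11) did not.

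Cyp2d26 ran the other way. It had 13.9, 21.2, 3.61, 2.80, 91.0, 35.2 and 114 CPM in late cells, against 158, 110.1, 77.9, 54.6, 222, 181 and 192 CPM in early cells, with a log2 fold of -2.21 ± 0.19 (edgeR adjusted p = 2.18e-11, 7 of 7 libraries). Cyp2d22, a further gene of the same array, fell by 0.69 on the log2 scale, in 5 of 7 libraries, and did not pass with DESeq2 or without library 2 or library 6. Cyp27a1 (-0.22 ± 0.15, edgeR adjusted p = 0.341), Cyp2c44, Cyp2d12 and Cyp4f13 did not pass.

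**Figure D3:**
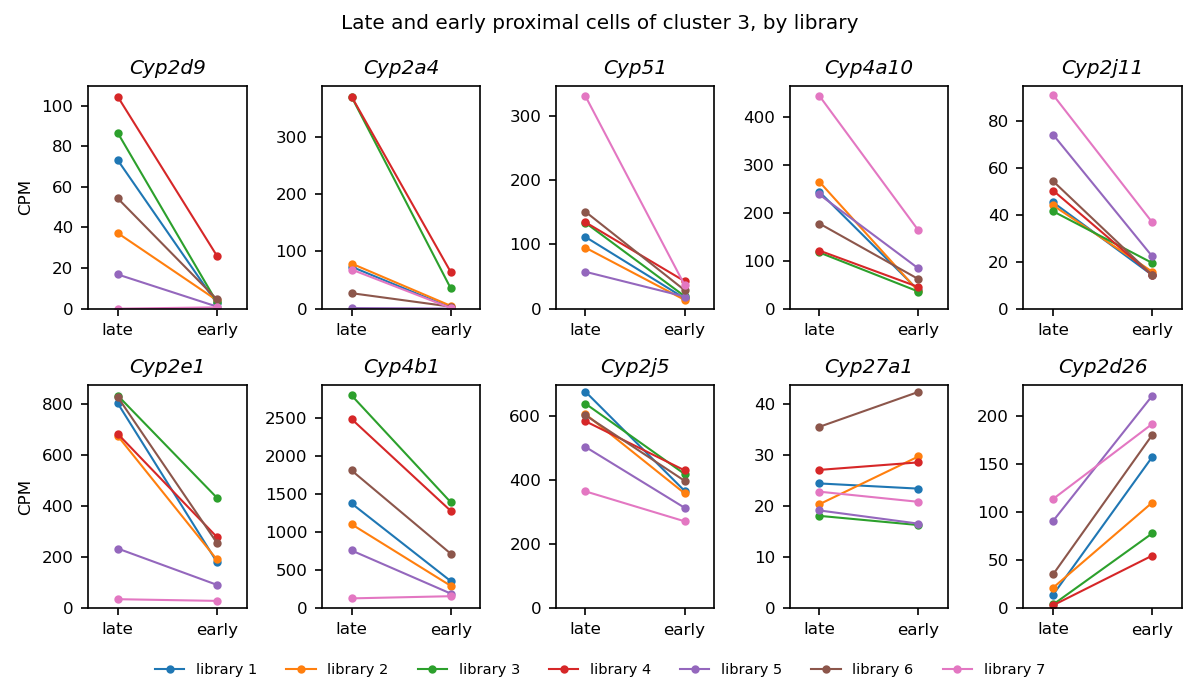
CPM in late cells (left) and early cells (right) of cluster 3 for 10 P450 genes, with 1 line per library. Lines slope down to the right for Cyp2d9, Cyp2a4, Cyp51, Cyp4a10, Cyp2j11, Cyp2e1, Cyp4b1 and Cyp2j5, with library 7 as an exception for Cyp2d9 and Cyp4b1, and up for Cyp2d26 in all 7 libraries.

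The shares of late and early cells differed between libraries, but so did the levels within each class. Late cells of libraries 3 and 4 had 170 and 176 CPM of Cyp4a12a, against at most 81.6 CPM in late cells elsewhere, and their early cells had 127 and 121 CPM, against at most 28.4 CPM. Cyp4a31 was at or under 7.46 CPM in late cells of libraries 3, 4 and 6, against 202 to 233 CPM in late cells of the others. Cyp2d26 ranged from 11.8 to 183 CPM over cluster 3 and from 54.6 to 222 CPM within early cells. The part of the shares of late and early cells in the library differences was not tested. With libraries 3, 4 and 7 left out, an alternative chosen after the data were seen, the same 13 and 2 genes passed.

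Endothelial-like cells (cluster 1) carried a P450 set of their own beside RNA also seen in proximal cells. Against the mean of clusters 4 to 7, 10 of the 17 genes tested were higher and 3 lower (edgeR), with 27.2% and 22.3% of all genes called and a median log2 fold of 0.85 over the 17 genes and 0.05 over all. Scaled by library totals, 12 were higher and 2 lower, with 43.1% and 13.8% of all genes called and medians of 1.18 and 0.38. Cyp26b1, which breaks down retinoic acid, had the largest fold (7.56 ± 0.42, edgeR adjusted p = 2.53e-23, 6 of 6 libraries). This fold is against a mean of 0.19 CPM in clusters 4 to 7 and depends on the prior count. The next highest cluster mean was 5.71 CPM (cluster 2), so the gene entered the test through cluster 1. Cyp26b1 levels in cluster 1 were 9.07, 123, 85.0, 15.6, 100.1, 16.9 and 17.6 CPM in libraries 1 to 7, and its mean was 0.15 CPM in cluster 3. A UMI was found in 89 of 1001 cells of cluster 1 (8.89%), against 0.0765% in cluster 14, and each of the 89 had a UMI of an endothelial marker. DESeq2 gave a fold of 6.85 that did not pass (adjusted p = 0.166, the highest of its alternatives, with 4.59e-32 as the lowest).

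Cyp4b1 reached 299, 537, 844, 806, 468, 786 and 422 CPM in cluster 1, against means of 60.4 to 120.2 CPM in clusters 4 to 7, with a log2 fold of 2.87 ± 0.21 (edgeR adjusted p = 1.51e-23). On average this was 101% of the level in cluster 3 of the same library, with a range of 33.4% to 286%, while the proximal markers stood at 19.1%, and in libraries 5 and 7 cluster 1 was above cluster 3. It had a UMI in 52.0% of cluster 1 cells, 51.4% of cluster 3 cells and 15.7% of cluster 14 cells, and in 39.5%, 34.9% and 9.12% with each cell thinned to 1000 UMIs, at median depths of 1658, 2281 and 1875 UMIs before thinning. In the 775 cells of cluster 1 with endothelial markers and no mural or fibroblast marker, Cyp4b1 was at 789 CPM, against 57.6 CPM (8 UMIs) in the 29 cells with mural or fibroblast markers only.

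Cyp20a1, an orphan P450 with no settled substrate, had 75.6, 67.4, 210, 132, 32.6, 63.2 and 79.1 CPM in cluster 1 and a fold of 2.40 ± 0.21 over clusters 4 to 7. It was at 98.3 CPM in the endothelial-marker cells and 5.24 ± 2.62 CPM in cluster 3. Cyp2d22 and Cyp4f13 did not pass the filter on low counts but were also highest in cluster 1 by mean. Cyp2d22 had 39.2 ± 18.3 CPM there, above cluster 3 (16.5 CPM) in 7 of 7 libraries. Cyp4f13 had 30.3 ± 25.9 CPM, above cluster 11 (27.0 CPM) in 5 of 7 libraries. Cyp4f18 (2.49) passed on few UMIs, with mean levels of 1.07 CPM in cluster 1 and 0.17 CPM in clusters 4 to 7, and was above in 2 and below in 2 of 6 libraries, and it was not called without library 5 (1.87) or library 6 (1.84). Cyp27a1 (1.29), Cyp4a10 (1.16), Cyp2j5 (0.98), Cyp4a14 (0.85), Cyp2e1 (0.85) and Cyp4a31 (0.83) were also called higher. These 6 genes stood at 15.8% to 26.9% of cluster 3 and the proximal markers at 19.1%, a higher share than that of the markers in clusters 4 to 7. The part of the marker levels in these calls was not tested. Of the 6, Cyp27a1, Cyp4a31 and Cyp2e1 were not called without library 2 (1.16, 0.49 and 0.65), Cyp4a14 and Cyp4a31 without library 5 (0.36 and 0.75), and Cyp27a1 without library 6 (0.99). Cyp2s1 (-5.00), Cyp4a12a (-1.69, not called without library 6 at -1.99 or with library totals at -1.40) and Cyp2j6 (-1.61) were lower.

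**Figure D4:**
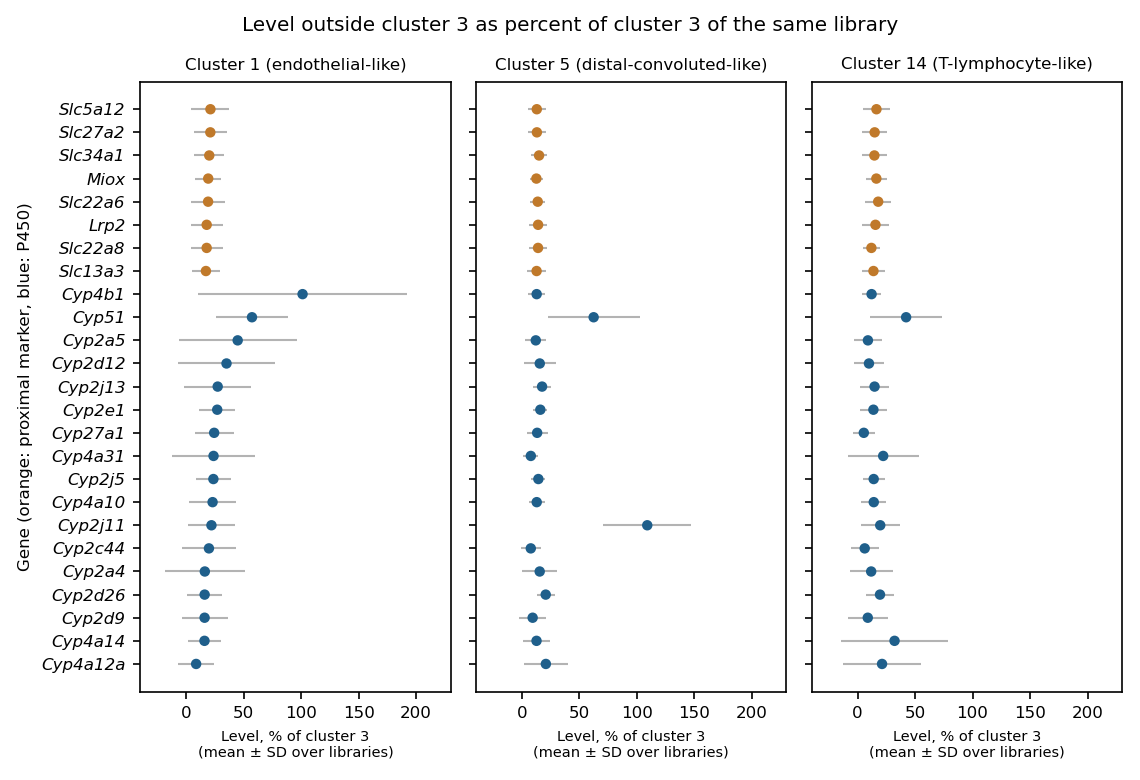
Level in clusters 1, 5 and 14 as percent of the level in cluster 3 of the same library (points, mean over libraries, bars, SD) for 8 proximal markers (orange) and P450 genes (blue). Cyp4b1 in cluster 1 (101%), Cyp2j11 in cluster 5 (109%) and Cyp51 in clusters 1, 5 and 14 (57.2%, 62.4% and 42.2%) lie above the summed markers (19.1%, 13.6% and 15.2%).

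In the collecting duct, the comparison of intercalated-like (cluster 7) with principal-like cells (cluster 6) gave 2 genes higher and none lower of 17 (edgeR), against 12.7% and 12.3% of all genes. Scaled by library totals, 2 were higher and 1 lower, against 9.75% and 15.2%. At an unadjusted p under 0.05, 3 were lower, and DESeq2 called none. Medians were -0.30 over the 17 genes and -0.01 over all. Cyp2s1, a P450 of epithelia, had 135, 80.1, 76.9, 72.8, 108, 105 and 109 CPM in cluster 7, against 20.6, 9.05, 17.2, 13.2, 13.6 and 38.1 CPM in cluster 6 of libraries 1 to 6, and the ranges did not overlap (2.53 ± 0.27, edgeR adjusted p = 7.81e-14). Cyp4a12a (2.23 ± 0.58, edgeR adjusted p = 0.0015) rested on libraries 3, 4 and 6, with 40.5, 23.5 and 49.1 CPM in cluster 7, against 0, 6.597 and 10.9 CPM in cluster 6. It did not pass the filter on low counts with libraries 3, 4 and 7 left out, or without library 3 or library 4 alone, and was not called without the library block (edgeR adjusted p = 0.12, the highest of its alternatives, with 0.000862 as the lowest). In library 6 its level in cluster 7 was close to the 55.0 CPM of cluster 3, while the proximal markers stood at 13.7% of cluster 3 there.

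Cyp1a1, the oxidase of aromatic hydrocarbons that the receptor Ahr induces, did not pass the filter and was highest in clusters 7 and 8. It had 38.5, 26.2, 36.4, 60.5, 28.5, 17.7 and 45.1 CPM in cluster 7 and no UMI in the 870 cells of cluster 6. With no filter its log2 fold was 8.16, and with only the compared clusters in the fit 7.53, with edgeR adjusted p of 1.07e-14 and 1.99e-07. These folds are against 0 UMIs and depend on the prior count. A UMI was found in 11.2% of cluster 7 cells and in 0.0491% of cluster 3 cells. Cyp4v3, a fatty acid hydroxylase gene, was at 22.9 ± 5.81 CPM in cluster 7 (n = 7) and 4.35 ± 3.91 CPM in cluster 6 (n = 6).

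Of 2 oxysterol hydroxylase genes, Cyp7b1 was higher in principal-like than in intercalated-like cells, and Cyp39a1 was at similar levels in both. Cyp7b1 had 1.48 ± 1.43 CPM in cluster 7 (n = 7), against 35.8 ± 19.97 CPM in cluster 6 (n = 6), with 3.52 CPM as the highest library in cluster 7 and 10.9 CPM as the lowest in cluster 6. With no filter its log2 fold, intercalated-like against principal-like, was -3.55. Cyp39a1 was at 21.3 ± 6.96 CPM in cluster 7 and 23.3 ± 5.45 CPM in cluster 6, and the ranges overlapped.

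Cells of cluster 7 were also split by anion exchanger into 867 with Slc26a4 and no Slc4a1 UMI, as in type B cells, and 631 with Slc4a1 and no Slc26a4 UMI, as in type A cells, with 231 others left out. This split and its genes were chosen after seeing levels and are given as a description. Cyp1a1 was at 59.3, 35.2, 34.6, 103, 37.5, 26.0 and 67.5 CPM in the Slc26a4 cells, against 0, 0, 26.8, 27.0, 4.56, 4.78 and 8.18 CPM in the Slc4a1 cells. The Slc26a4 cells were higher in each library. Cyp2s1 was at 115 CPM in the pooled Slc26a4 cells and 77.0 CPM in the pooled Slc4a1 cells, and Cyp4a12a at 24.3 CPM (106 UMIs) and 5.22 CPM (13 UMIs). Cyp3a13, of the drug-oxidising family 3, ran the other way, with 1.15 CPM (5 UMIs) in Slc26a4 cells and 19.7 CPM (49 UMIs) in Slc4a1 cells, and so did Cyp4v3 with 18.6 and 29.3 CPM.

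**Figure D5:**
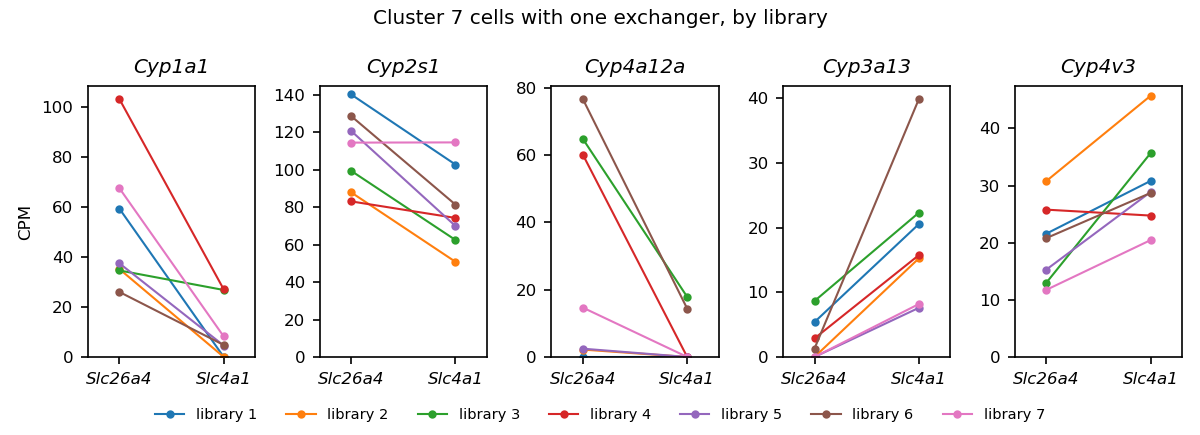
CPM of 5 P450 genes in cluster 7 cells with Slc26a4 and no Slc4a1 UMI (left) and with Slc4a1 and no Slc26a4 UMI (right), with 1 line per library. Cyp1a1 is higher in the Slc26a4 cells and Cyp3a13 in the Slc4a1 cells in each of the 7 libraries.

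Loop of Henle-like cells (cluster 4) were compared with the mean of distal, principal-like and intercalated-like cells. No P450 gene was called in either direction by edgeR, against 9.07% and 9.38% of all genes. At an unadjusted p under 0.05, 1 was higher and 2 lower, and DESeq2 called none. Cyp2j6 came nearest (-0.52 ± 0.20, edgeR adjusted p = 0.0533). Medians were 0.07 over the 17 genes and -0.02 over all. Cyp2j6 had 38.6 ± 8.91 CPM in cluster 4 (n = 7) and was highest in distal convoluted-like cluster 5, at 66.1, 46.1, 81.6, 80.9, 93.5, 66.8 and 89.8 CPM in libraries 1 to 7. Its neighbour Cyp2j11 had 36.0 ± 12.5 CPM in cluster 5 and 33.9 ± 5.43 CPM in cluster 3, with 4.32 to 9.61 CPM as means of clusters 4, 6 and 7. Cyp2u1, a fatty acid hydroxylase gene, was spread over clusters 4 to 8 at 23.7 to 31.8 CPM, with 4.98 CPM in cluster 3.

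Cells of cluster 9, which join proliferation and proximal genes, had less P450 RNA than cluster 3. Of 17 genes, none was higher and 11 were lower (edgeR), with 6.9% and 16.5% of all genes called and medians of -1.67 over the 17 genes and -0.26 over all. No gene was higher at an unadjusted p under 0.05 or by DESeq2. These values depend on scaling. With library totals, 8 were lower, 14.1% of all genes were higher and 3.95% lower, and medians were -1.02 over the 17 genes and 0.23 over all. Cyp4a12a, Cyp4a14 and Cyp51 were not called there or with only the 2 clusters in the fit. Cyp4b1 (-2.72 ± 0.39) had 194 ± 135 CPM in cluster 9 (n = 4), against 703 CPM in cluster 3 of the same 4 libraries. Cyp2e1 (-2.41) had 77.2 and 363 CPM and Cyp2j5 (-1.69) 309 and 418 CPM in clusters 9 and 3. For Cyp2j5, which averaged 73.4% of its level in cluster 3 of the same library, the fitted fold is larger than the difference in CPM, and it was -1.02 with library totals and -0.98 with only the 2 clusters in the fit. Without the library block it was -1.30 and no longer passed an adjusted p of 0.05 (edgeR). Cyp4a12a (-3.07), Cyp27a1 (-2.30) and Cyp2j13 (-2.11) were among the largest falls. Cyp2d26 was called (-1.70) but was higher in cluster 9 in 2 of 4 libraries. Library 5 gave 552 of the 601 cells, and the proximal markers stood at 46.2% of cluster 3, and the part of lower proximal marker levels in these folds was not tested. Without library 5 the fits of Cyp4a12a, Cyp51 and Cyp2d26 no longer passed.

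Among immune cells, Cyp4f18 and Cyp27a1 were higher in the mean of the myeloid clusters than in that of the lymphoid clusters. Between myeloid (clusters 10 to 12) and lymphoid clusters (13 to 15), 2 genes were higher and none lower of 17 (edgeR), against 7.57% and 18.4% of all genes (9.18% and 13.4% with library totals), with none lower at an unadjusted p under 0.05 or by DESeq2. Medians were 0.48 over the 17 genes and -0.23 over all. Cyp4f18, which inactivates leukotrienes in neutrophils, had a log2 fold of 5.42 ± 0.70 (edgeR adjusted p = 1.26e-09, 5 of 5 libraries). It had 95.7, 472, 114, 176 and 261 CPM in cluster 12 of libraries 2, 4, 5, 6 and 7, 64.2 ± 50.5 CPM in monocyte-like cluster 10 and 43.6 ± 51.2 CPM in B lymphocyte-like cluster 13. A UMI was found in 32.4% of the 74 cells of cluster 12 and in 0.034% of cluster 3 cells.

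Cyp27a1 (3.18 ± 1.00, edgeR adjusted p = 0.0111) had 98.8 ± 115 CPM in macrophage-like cluster 11, but this mean leaned on library 4, with 351 CPM from 10 cells, and the others held 0 to 79.9 CPM. In cluster 10 it had a mean of 42.0 CPM, at 193% of cluster 3 of the same library (116% to 262%, n = 7). In cluster 12 it had a UMI in 1 of 74 cells. The level was not particular to myeloid cells. Podocyte-like cluster 2 had 81.3 ± 80.2 CPM of Cyp27a1 (n = 4), and cluster 11 was above it in 2 of 4 libraries. A UMI of Cyp27a1 was found in 13 of the 78 cells of cluster 2 (16.7%), against 14.9% in cluster 11 and 11.5% in cluster 10. Its call was lost without library 2 (1.47) and with at least 20 cells per sum (0.72). Cyp4f16 was highest in cluster 10, at 23.0 to 188 CPM with a median of 68.8, against 23.9 ± 7.10 CPM in cluster 8, the next highest. Cyp2ab1 was rare, with 18 UMIs in all and 9.98 ± 11.1 CPM in cluster 10.

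Podocyte-like cluster 2 had 78 cells and 4 library sums. Cyp1b1, an oxidase of steroids and aromatic hydrocarbons, had 60.3, 9.19, 114 and 0 CPM there in libraries 2, 5, 6 and 7, with 26 UMIs in all clusters. In cluster 1 its UMIs lay in 10 cells, of which 2 had fibroblast marker UMIs and 3 endothelial ones. Cyp4f15 similarly lay in 9 cells of cluster 1 with no endothelial marker UMI, of which 7 had mural marker UMIs. Both are counts of few molecules.

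Genes that serve P450 enzymes were followed as lists. Of 9 symbols listed as partners of P450 enzymes, 7 were tested between cluster 3 and clusters 4 to 7. Of these, 6 were higher and 1 lower (edgeR, median 0.65), against 29.1% and 31.4% of all genes and a median of -0.04 over all. Cyb5a, cytochrome b5, was at 1641 ± 634 CPM in cluster 3 (2.13) and Por at 111 ± 31.0 CPM (1.52), while Pgrmc1 was lower (-1.61). In late cells, Cyb5a (0.72), Cyb5r3 (0.57) and Por (0.44) were higher than in early cells and Cyb5b (-0.31) and Pgrmc1 (-0.39) lower. In intercalated-like cells, Pgrmc1 was higher than in principal-like cells (2.32), at 951 CPM in cluster 7 and 236 CPM in cluster 6.

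Of 10 haem genes, 8 were tested between cluster 3 and clusters 4 to 7, with 6 higher and 2 lower (median 0.85), against 29.1% and 31.4% of all genes. Cpox (1.60), Hmox1 (1.15), Alas1, which encodes the first enzyme of haem synthesis (0.97), and Alad (0.86) were higher and Hmox2 (-0.49) and Urod (-0.40) lower. Of 10 tested between late and early cells, Cpox was higher (0.46) and Urod, Alas1 and Hmox1 were lower (-0.42, -0.43 and -0.64), against 12.2% and 10.8% of all genes.

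Of 14 regulator genes, 8 were tested between cluster 3 and clusters 4 to 7, and 5 were higher, 1 lower and 2 not called (median 1.77), against 29.1% higher and 31.4% lower of all genes. Hnf4a (3.66), the bile acid receptor gene Nr1h4 (3.14) and the oxysterol receptor gene Nr1h3 (3.02) were higher, and Ahr was lower (-1.91), with 2.65 ± 1.42 CPM in cluster 3 and 14.7 CPM in cluster 7. In endothelial-like cells, Ahr was higher than in clusters 4 to 7 (1.54).

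Of 11 eicosanoid genes, 7 were tested between cluster 3 and clusters 4 to 7, with 2 higher and 3 lower (median -0.93), against 29.1% and 31.4% of all genes. Ephx2, the soluble epoxide hydrolase that opens the epoxides made by 2j and 2c enzymes, was at 156 ± 61.5 CPM in cluster 3 (2.52), while Ephx1 (-4.62), Ptges (-4.87) and Ptgs1 (-4.21), of xenobiotic epoxide and prostaglandin metabolism, were lower. Ephx2 was also higher in late than in early cells (0.86), the only gene of the list that passed the filter there.

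The remaining genes were rare. The 8 genes with a highest mean of 5 to under 20 CPM were Cyp2j9, Cyp4x1, Cyp3a13, Cyp2r1, Cyp46a1, Cyp2ab1, Cyp26a1 and Cyp17a1. The 11 under 5 CPM were Cyp2j7, Cyp2j8, Cyp4a12b, Cyp4a32, Cyp2f2, Cyp2d11, Cyp2d10, Cyp4f17, Cyp4f15, Cyp4f14 and Cyp2c69. Totals in this last set ran from 7 UMIs (Cyp2d10) to 147 UMIs (Cyp4a12b). Several have near-copies, and Cyp4a32 shared 66.7% and Cyp2c69 38.4% of its 3′ windows with other genes, so their levels and those of their copies are uncertain. Of all 50 genes, 19 were highest in cluster 3, among them 5 of the 8 of the Cyp4x1 to Cyp4b1 run, 4 of the 7 of the Cyp2j13 to Cyp2j5 run, 4 of the 6 of the Cyp2d22 to Cyp2d26 run and 1 of the 5 of the Cyp4f17 to Cyp4f13 run.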

How the data were processed

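The authors deposited 1 matrix of UMI counts per gene and cell, not normalized, with their cluster number for each cell. Per the submitters' processing notes, Cell Ranger 1.3 and STAR were used with mm10 (GRCm38.p4). Cells of the matrix ranged between 201 and 2998 detected genes and between 707 and 15000 UMIs, with a mitochondrial share of up to 50%. No further cells were removed here, and no doublet caller was run. All columns of the matrix were used (0 left out).

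Counts were summed per cluster and library, keeping sums of at least 5 cells, and tested with edgeR 4.0.16 (R 4.3.3, quasi-likelihood test, TMM scaling, filter on low counts, library as a block) across all genes that passed. Adjusted p-values (Benjamini-Hochberg) under 0.05 were called. The block pairs sums from the same kidney. One fit held the 16 clusters and another the late and early cells, which had at least 2 UMIs of the marker lists and at least 3 times as many of one list as of the other. The scripts were tested on simulated data. Libraries gave 4217169 to 49997616 UMIs in all, and intervals cover counting error only. Alternatives were DESeq2 1.42.0, its size factors, no filter, at least 20 cells per sum, thinned cells, no block, only the compared clusters, at least 4 marker UMIs and each library left out. Libraries 3, 4 and 7 left out together, the late list without Slc7a13, and scaling by library totals without TMM were chosen after seeing the data.

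The P450 genes and all lists were chosen with earlier results of these data known. Named genes were those with a mean of at least 100 CPM in a cluster, up to 6 called per direction and comparison by size of fold, those with the widest range over libraries among genes of at least 50 CPM in cluster 3, genes of at least 20 CPM that were highest outside cluster 3, and the highest and the called list genes. The splits within clusters 1 and 7, the 4 promoters and further genes named for their pattern were chosen after their values were seen. WT and reporter kidneys were not compared, since libraries are not tied to mice. Some items are not reported here.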

Additional observations from a re-analysis of the deposited data

Results flagged for a closer look

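Of 49 groups of libraries checked, 8 had 1 library far from the others by Dixon's criterion, which chance alone meets in about 1 in 20 groups. In single genes, Cyp27a1 in cluster 11 was 351 CPM in library 4, with the next library at 79.9 CPM. Cyp4a10 in cluster 3 was 182 CPM in library 7, with the next at 111 CPM. Cyp4f16 in cluster 10 was 188 CPM in library 3, with the next at 70.6 CPM.

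The other 5 were summed P450 levels of library 6 outside cluster 3. They were 850.4 CPM in cluster 4, 993 CPM in cluster 5, 816 CPM in cluster 7, 1237 CPM in cluster 10 and 887 CPM in cluster 14, with next libraries at 429.9, 575, 548, 621 and 424 CPM. The 8 proximal markers of library 6 stood in these clusters at 1807, 2046, 1087, 2210 and 2276 CPM, the highest of the 7 libraries in each of the 5, and their part in the flagged sums was not tested.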

How the results depend on the processing

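Counts are P450 genes called higher and lower. Between proximal and other tubule cells (11 and 4), they were 31 and 8 with no filter, 19 and 7 with at least 20 cells per sum and 17 and 7 with only the compared clusters, and 2 lower with thinned cells. Between loop and distal cells (0 and 0), they were 1 and 3 with no filter, 3 and 1 with only the compared clusters, and 1 lower with at least 20 cells. Between intercalated and principal cells (2 and 0), they were 5 and 2 with no filter, 4 and 2 with at least 20 cells, 1 and 1 with thinned cells, 1 and 2 without libraries 3, 4 and 7, and 1 lower with library totals. Between cycling and proximal cells (0 and 11), 1 was higher with no filter, with at least 20 cells and with only the compared clusters, and 6 were lower with thinned cells. Between endothelial and tubule cells (10 and 3), 6 were higher with DESeq2, 17 and 6 were called with no filter, 5 and 1 with thinned cells, 6 were higher with only the compared clusters and 5 lower with at least 20 cells. Between myeloid and lymphoid cells (2 and 0), 1 was higher with at least 20 cells, with thinned cells, with only the compared clusters and without libraries 3, 4 and 7. Between late and early cells (13 and 2), 1 was lower with DESeq2 and with thinned cells, and 4 with no filter. Fits with no filter or other sums test other numbers of genes, and the cause of the other changes was not tested.

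Leaving out each library gave 10 to 17 higher between proximal and other tubule cells (17 without library 2), 0 to 1 lower for loop cells, 1 to 2 higher and 0 to 1 lower for intercalated cells, 8 to 13 lower for cycling cells, 1 to 2 higher for myeloid cells and 11 to 13 higher and 1 to 2 lower for late cells. Without the replicate block, the counts were 1 higher for intercalated cells, 7 lower for cycling cells, and 7 higher and 1 lower for late cells, where Cyp2j13, Cyp4a12a, Cyp4a14, Cyp4a31, Cyp4b1, Cyp2e1 and Cyp2d22 were not called. Of 897 values of single called genes under the alternatives, 839 stayed on the same side of the threshold, 58 no longer passed and 0 changed direction. A called gene that failed the filter on low counts under an alternative gave no value, so such losses are not among the 897. Genes under about 20 CPM and clusters 2, 8, 9, 12 and 16, with 3 to 5 library sums, are limited by depth.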
